A study of Mus musculus with 40 samples.

Results

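Adgrb1, Epha8, Radil, Ssh3, Crocc, Leng8, Prpf40b, Man2c1 and Abhd16a are 9 of the 21967 genes in a count table of mouse cerebellar transcripts. They were chosen because the difference between SCA6 and wild-type (WT) cerebella lay lower at 6 months than at 3 months, so that their transcripts were above the WT level at 3 months and below it at 6 months. The choice set no threshold, and all 9 passed the filter on low counts. Since the values of 3 and 6 months chose the genes, they are given here as a description with no test, and tests were run on the libraries of 12 and 19 months, which took no part in the choice.

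SCA6 mice carry a hyperexpanded CAG repeat, which encodes polyglutamine, knocked into one allele of Cacna1a, and their line was recovered from frozen embryos. WT mice lack the repeat. Poly(A) RNA of the whole cerebellum was sequenced at 3, 6, 12 and 19 months from mice of both genotypes, with 5 libraries per genotype and age and 40 in all. The labels give no sex, litter or strain, and in whole tissue fewer cells of a type and less RNA per cell cannot be told apart.

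Cacna1a encodes the pore-forming subunit of the P/Q-type calcium channel, which is abundant in Purkinje neurons, the output cells of the cerebellar cortex, and in granule cells. The 9 genes belong to no single pathway. Adgrb1 and Epha8 encode receptors at the cell surface, Radil, Ssh3 and Crocc act on adhesion, actin and the ciliary rootlet, Leng8 and Prpf40b serve the handling of RNA in the nucleus, and Man2c1 and Abhd16a are enzymes of glycan and lipid breakdown.

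The genes lie on 7 chromosomes and have no common position (GRCm38, GENCODE M21). Adgrb1 (chromosome 15, 74516195 to 74589465, plus strand) and Prpf40b (chromosome 15, 99295087 to 99317018, plus strand) share a chromosome, as do Epha8 (chromosome 4, 136929419 to 136956816, minus strand) and Crocc (chromosome 4, 141016637 to 141060550, minus strand). Radil (chromosome 5, 142484839 to 142551098, minus strand), Ssh3 (chromosome 19, 4261668 to 4269180, minus strand), Leng8 (chromosome 7, 4137039 to 4148177, plus strand), Man2c1 (chromosome 9, 57130690 to 57142722, plus strand) and Abhd16a (chromosome 17, 35089263 to 35102987, plus strand) lie apart. None is on the chromosome of Cacna1a. What the transcripts had in common was base composition and structure. In the longest coding transcript the GC content was 56.7% to 63.9%, with a median of 58.3% against 50.2% over 12684 protein-coding genes, and all 9 lay above that median. Their exons numbered 14 to 37, above the median of 9 exons in all 9 genes. The annotation holds at least 1 transcript with a retained intron for 8 of the 9, the exception being Epha8, against 58.9% of genes, and at least 5 such transcripts for Ssh3, Crocc, Prpf40b and Man2c1 (4 of 9, against 7.27%).

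To show the start of the genes at both ends of the shift, the 250 bases upstream of a RefSeq start (GRCm38.p6) are printed. They are given for Radil, the most shifted gene, for Prpf40b, the least shifted, and for Man2c1, the poorest in GC of the stretches printed. Where RefSeq gave several starts for a gene, the one whose promoter was richest in GC was taken. By the GENCODE positions, Prpf40b and Man2c1 begin inside their printed stretches, at 99295087 and 57130690. Capitals mark the GC box, GGGCGG on either strand.
Radil, chr5:142551099-142551348, minus strand: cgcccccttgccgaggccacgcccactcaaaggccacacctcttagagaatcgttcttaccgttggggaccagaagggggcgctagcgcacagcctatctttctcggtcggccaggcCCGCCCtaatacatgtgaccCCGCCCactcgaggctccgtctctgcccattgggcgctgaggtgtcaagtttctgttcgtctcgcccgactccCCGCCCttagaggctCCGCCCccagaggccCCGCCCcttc
Prpf40b, chr15:99294991-99295240, plus strand: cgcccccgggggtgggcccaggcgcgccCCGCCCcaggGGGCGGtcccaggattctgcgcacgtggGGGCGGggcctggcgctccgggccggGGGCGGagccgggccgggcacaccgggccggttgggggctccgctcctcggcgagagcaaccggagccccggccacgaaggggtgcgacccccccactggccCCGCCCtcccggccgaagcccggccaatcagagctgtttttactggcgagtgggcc
Man2c1, chr9:57130527-57130776, plus strand: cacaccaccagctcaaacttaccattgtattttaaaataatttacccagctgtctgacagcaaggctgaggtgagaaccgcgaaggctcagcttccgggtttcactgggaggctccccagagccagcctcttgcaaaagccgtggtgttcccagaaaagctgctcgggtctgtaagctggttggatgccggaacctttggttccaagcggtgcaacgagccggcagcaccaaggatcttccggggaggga

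The stretches of Radil and Prpf40b each held 5 GC boxes and that of Man2c1 held 0. The other promoters of Radil and Prpf40b, at 55.7% and 53.7% GC, each held 0. RefSeq gave 13 promoters, each with the first bases of the transcript, for 8 of the 9 genes, Adgrb1 being the one without. Some genes gave several, and those of Ssh3 overlap, so the 13 are not independent. A GC box was in 9 of the 13, against 61.5% of 13020 promoters, the letters CCAAT on either strand in 8 of 13 (37.3%), and TATAAA on either strand in 0 of 13 (7.04%). The GC content of these promoters had a median of 62.7% against 60.7% over all, and these matches describe the letters alone.

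The libraries held 38782918 to 84506602 counted reads. Defining markers of granule cells (Gabra6 at 904 to 1292 CPM) and Purkinje cells (Car8 at 1265 to 2427 CPM) were high in all 40. Levels are given in CPM, read counts scaled to a common library size and composition by TMM. Cacna1a was at 374 ± 42.6 CPM for WT and 353 ± 25.1 CPM for SCA6 cerebella at 3 months, and at 489 ± 37.3 and 402 ± 35.1 CPM at 6 months (SD, n = 5 each). Comp and Mri1, which lie on chromosome 8 as Cacna1a does and were picked from earlier results of these data, went against the label in replicates 2 and 3 labelled SCA6 at 3 months. Comp was at 2.82 to 6.21 CPM in the 20 WT libraries and 7.79 to 14.1 CPM in the other 18 SCA6 libraries, but at 3.61 and 3.67 CPM in that pair. Mri1 was at 21.1 to 28.6, 13.6 to 18.4, and 24.3 and 27.3 CPM. The median difference of the members is also given without this pair of libraries, as are the 3 month differences of Adgrb1, Radil and Leng8. So are summary values of the members' correlations, the GC index and some lists. Unless stated, all other values of 3 months include the pair. Among these are the fold changes of the other members, all standard errors and the statements on overlap. Of the 5 libraries per group, Y-linked transcripts were present in 2, 3, 4 and 5 WT libraries and in 4, 1, 1 and 3 SCA6 libraries, in order of age, so they were not balanced between genotypes. Choroid plexus transcripts summed to 217 CPM for WT 6 months replicate 1, against 4524 CPM as the median of WT libraries at that age.

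Adgrb1, also known as Bai1, is an adhesion receptor that takes up apoptotic cells and acts at synapses. At 3 months it was at 80.3, 85.5, 85.9, 77.9 and 87.1 CPM for WT replicates 1 to 5 and at 99.4, 105, 131, 97.4 and 87.8 CPM for SCA6. All SCA6 libraries lay above all WT libraries, replicate 5 by a narrow margin. At 6 months it was at 116, 97.3, 109, 133 and 113 CPM for WT and 97.7, 80.1, 90.2, 84.1 and 88.8 CPM for SCA6, where 4 of 5 SCA6 libraries were below the lowest WT library. The log2 fold change from edgeR was 0.32 (standard error 0.087) at 3 months and −0.37 (standard error 0.080) at 6 months.

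Epha8, a receptor tyrosine kinase for ephrins in axon guidance, was at 33.3, 33.4, 38.5, 37.2 and 31.9 CPM for WT and 45.9, 44.8, 49.4, 39.5 and 37.6 CPM for SCA6 at 3 months. Only SCA6 replicate 5 fell within the WT range. At 6 months the levels were 39.1, 28.7, 34.2, 46.05 and 39.998 CPM for WT and 31.02, 24.96, 29.1, 28.8 and 29.8 CPM for SCA6. Here the groups overlapped through WT replicate 2, and the other 4 WT libraries were above every SCA6 library. The log2 fold changes were 0.32 (standard error 0.075) and −0.39 (standard error 0.11).

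Radil, an effector of the small GTPase RAP1 in cell adhesion, had the largest change between the ages. It was at 18.4, 16.6, 19.3, 18.4 and 16.6 CPM for WT and 27.7, 21.98, 21.9, 20.03 and 19.8 CPM for SCA6 at 3 months, and the groups did not overlap. At 6 months it was at 29.98, 23.98, 26.4, 34.9 and 33.3 CPM for WT and 21.9, 19.1, 22.3, 20.5 and 22.9 CPM for SCA6, again with no overlap but in the opposite order. Its log2 fold changes were 0.32 (standard error 0.084) and −0.48 (standard error 0.10). The SCA6 means of both ages were close, at 22.3 ± 3.18 and 21.3 ± 1.55 CPM, while the WT means were 17.8 ± 1.22 and 29.7 ± 4.57 CPM (SD, n = 5 each).

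Ssh3, a slingshot phosphatase of the family that activates the actin-severing protein cofilin, was at 35.4, 35.3, 35.2, 38.1 and 32.5 CPM for WT and 44.01, 49.2, 45.05, 43.6 and 39.2 CPM for SCA6 at 3 months, without overlap. At 6 months the ranges were 46.5 to 58.3 CPM for WT and 34.6 to 49.6 CPM for SCA6, and 3 SCA6 libraries lay below the WT range. Crocc, or rootletin, the main component of the ciliary rootlet, had the largest difference at 3 months. It was at 12.4, 11.4, 11.1, 11.4 and 11.2 CPM for WT and 15.7, 15.6, 18.8, 16.3 and 13.05 CPM for SCA6, a ratio of means of 1.38, with the lowest SCA6 library above the highest WT library. At 6 months Crocc was at 20.2, 18.2, 24.3, 20.4 and 19.3 CPM for WT and 18.9, 13.2, 16.997, 17.7 and 20.4 CPM for SCA6, and the groups overlapped. The log2 fold changes at 3 and 6 months were 0.33 and −0.29 for Ssh3 (standard errors 0.057 and 0.095), and 0.47 and −0.24 for Crocc (standard errors 0.082 and 0.11).

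Leng8, a nuclear protein of the family that links transcripts to export (28.9 RPKM on average over all libraries), lay below only Abhd16a in level per length (41.8 RPKM), and Crocc the lowest (1.94 RPKM). At 3 months Leng8 was at 153, 135, 139, 153 and 139 CPM for WT and 183, 189, 186, 194 and 155 CPM for SCA6, and replicate 5 of SCA6 stood apart from the other 4 but still above WT. At 6 months it was at 251, 217, 252, 278 and 215 CPM for WT and 186, 164, 186, 216 and 238 CPM for SCA6, where SCA6 replicates 4 and 5 lay within the WT range. Prpf40b, which bridges splice sites early in spliceosome assembly, had the smallest change, from 53.96 to 57.9 CPM for WT and 59.9 to 70.5 CPM for SCA6 at 3 months, without overlap, to 67.9 to 77.04 and 57.97 to 75.4 CPM at 6 months, with 3 SCA6 libraries below the WT range. The log2 fold changes were 0.34 (standard error 0.060) and −0.30 (standard error 0.096) for Leng8. For Prpf40b they were 0.24 (standard error 0.043) and −0.12 (standard error 0.065).

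Man2c1 is an alpha-mannosidase of the cytosol that trims free glycans. It was at 51.7, 50.3, 49.97, 51.9 and 52.7 CPM for WT and 58.7, 61.998, 62.2, 61.4 and 55.6 CPM for SCA6 at 3 months and at 70.3, 64.1, 72.7, 72.5 and 64.3 CPM for WT and 60.7, 50.3, 55.9, 60.5 and 62.5 CPM for SCA6 at 6 months. As for Radil, the groups did not overlap at either age and their order turned. Abhd16a, the lipase that makes lysophosphatidylserine, was at 115 to 135 CPM for WT and 121 to 167 CPM for SCA6 at 3 months, with overlap, and at 134 to 172 and 118 to 134 CPM at 6 months, where only SCA6 replicate 5, at 134 CPM, reached the lowest WT library. The log2 fold changes were 0.23 (standard error 0.039) and −0.25 (standard error 0.063) for Man2c1. For Abhd16a they were 0.21 (standard error 0.083) and −0.31 (standard error 0.065). Reads of Leng8 share 263 exonic bases with Leng9 on the opposite strand (mean 6.02 CPM), and those of Man2c1 share 461 with the antisense gene Man2c1os. The sources used here do not say whether counting used strand, so the partners cannot be told apart over these bases.

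**Figure D1:**
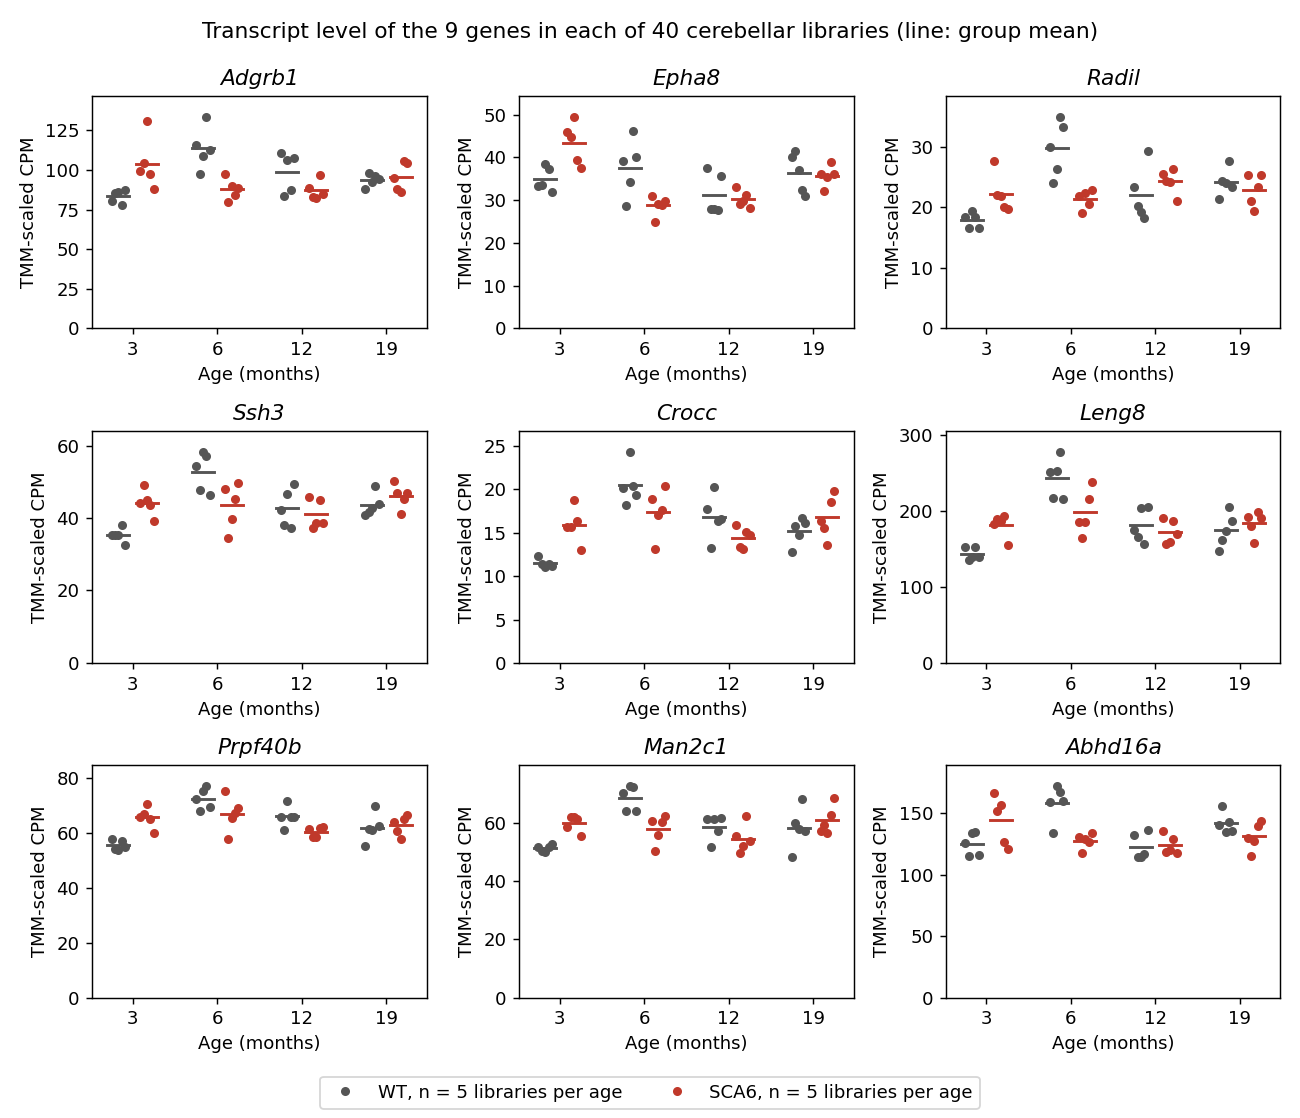
Level of each of the 9 genes in CPM scaled by TMM (vertical axes, from 0) at 3, 6, 12 and 19 months (horizontal axes), with 1 point per library, grey for WT and red for SCA6, and a line at the mean of 5 libraries. All red points lie above all grey points at 3 months in 7 of the 9 panels, not for Epha8 and Abhd16a, and below at 6 months in those of Radil and Man2c1, with overlap in the others. At 6 months the WT level is the highest of the 8 groups in 8 of the 9 genes, and the colours mix at 12 and 19 months. The values of 3 and 6 months chose the genes.

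At 3 months 7 of the 9 genes had all SCA6 libraries above all WT libraries, the exceptions being Epha8 and Abhd16a, where 1.29% of 13381 genes did. At 6 months 2 of 9, Radil and Man2c1, had all SCA6 libraries below all WT libraries, where 0.688% of genes did. These contrasts chose the genes, so nothing is read from the counts. The median log2 difference of the 9 was 0.32 at 3 months and −0.30 at 6 months, beside medians of −0.0029 and 0.00049 over all genes tested. The change between these ages, the 6 month difference less that of 3 months, had a median of −0.64 and ran from −0.81 for Radil to −0.36 for Prpf40b, with Epha8 at −0.72, Crocc at −0.71, Adgrb1 at −0.70, Leng8 at −0.64, Ssh3 at −0.62, Abhd16a at −0.53 and Man2c1 at −0.48. The 5th and 95th percentiles over 13210 genes were −0.33 and 0.24. A total of 17 genes lay below Radil, and 461 genes outside the list lay at or below Prpf40b with the same signs at both ages, so the 9 are a selection from a larger set. The nearest genes outside were Setd4 (−0.36) and Plcd1 (−0.36). Without replicates 2 and 3 labelled SCA6 at 3 months, the median was 0.24 at 3 months and −0.56 for the change, and Adgrb1 fell from 0.32 to 0.19 at 3 months, while Radil was at 0.33 and Leng8 at 0.30. This pair had Comp and Mri1 within the WT ranges. Its mean log2 level of the 9, less the mean of the WT libraries of 3 months, was 0.34 and 0.42. That level was 0.35, 0.25 and 0.10 in replicates 1, 4 and 5 labelled SCA6. With the pair read as WT, the level would overlap between the genotypes, and the genotype of the pair was not tested.

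Over the 8 groups, WT at 6 months was the highest group for 8 of the 9 genes, the exception being Epha8, which was highest in SCA6 at 3 months. WT at 3 months was the lowest for 7 of the 9, the exceptions being Epha8, lowest in SCA6 at 6 months, and Abhd16a, lowest in WT at 12 months. The values of 3 and 6 months chose the genes, and the share over all genes was not taken. Nothing is therefore read from how many genes were highest or lowest in these groups. Between neighbours in the order of group means, the libraries overlapped in 60 of 63 pairs. The gap in means was over the larger SD in 10. Sorting by mean puts like groups side by side, and no share over all genes was taken. Nothing is therefore read from these counts of neighbours. From 3 to 6 months the mean log2 CPM was higher in WT for all 9 genes, by 0.09 for Epha8 to 0.78 for Crocc, with a median of 0.44. In SCA6 cerebella it went from −0.58 for Epha8 to 0.12 for Crocc, with a median of −0.05. From 6 to 12 months it moved by a median of −0.28 in WT and −0.07 in SCA6. Medians over all genes tested lay between −0.0071 and 0.0012 for these changes. Ages were not compared by a test here because the libraries of 3 and 6 months chose the genes, and age and the day of collection or preparation cannot be told apart.

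At 12 months none of the 9 genes passed the test between genotypes. edgeR called 0 of 9 (adjusted p of 0.05 or less and a log2 fold change of at least 0.3 in size), beside 0.0303% of 13202 genes, and the lowest adjusted p of the 9 was 0.594. Crocc was at 17.7, 13.2, 20.2, 16.4 and 16.5 CPM for WT and 15.9, 13.3, 13.1, 15.1 and 14.7 CPM for SCA6, and its log2 fold change was −0.22 (standard error 0.10). Adgrb1 was at 111, 83.5, 106, 87.5 and 107 CPM for WT and 88.3, 83.2, 82.5, 96.6 and 84.9 CPM for SCA6, and its log2 fold change was −0.19 (standard error 0.081). Both groups overlapped for each gene. With Prpf40b (log2 fold change −0.13 (standard error 0.047)) these were the 3 of 9 with an unadjusted p under 0.05, beside 7.71% of genes tested. Radil, the most shifted gene at the younger ages, was at 18.2 to 29.2 CPM for WT and 21.1 to 26.4 CPM for SCA6, and the log2 fold change was 0.14 (standard error 0.11). The values of Man2c1 (−0.11), Leng8 (−0.07), Ssh3 (−0.06), Epha8 (−0.05) and Abhd16a (0.012) had unadjusted p-values of 0.142 or more in edgeR. DESeq2 called 0 of 9 and 10 genes in all. With so few calls over all genes, nothing is read from the 0 of 9. In 0 of the 9 genes were the genotypes apart without overlap, beside 0.658% of all genes.

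At 19 months, when the mice of this model are older than at any other age measured, none of the 9 genes passed the test either. edgeR called 0 of 9, beside 0.0226% of 13272 genes, and the lowest adjusted p of the 9 was 0.9999. Crocc was at 12.8, 15.8, 14.8, 16.7 and 16.1 CPM for WT and 16.4, 15.5, 13.6, 18.5 and 19.8 CPM for SCA6, and the log2 fold change was 0.13 (standard error 0.10). Abhd16a lay the furthest below, at 135 to 156 CPM for WT and 116 to 144 CPM for SCA6, and the log2 fold change was −0.11 (standard error 0.062). The other 7 ran from −0.08 for Radil to 0.08 for Ssh3. 0 of 9 had an unadjusted p under 0.05 (4.02% of genes), and DESeq2 called 0 of 9 and 9 genes in all. Groups overlapped in all 9, where 0.942% of genes did not overlap. Over 12 and 19 months together, with age as a factor, 0 of 9 passed, beside 0.0676% of 13321 genes, with log2 fold changes from −0.08 (Adgrb1) to 0.03 (Radil) and standard errors of 0.042 to 0.084. In that fit 0 of 9 had an unadjusted p under 0.05, beside 4.29% of genes, and DESeq2 called 0 of 9 and 11 genes in all. With so few calls over all genes at 19 months and over both ages, nothing is read from the 0 of 9 called. The median of the 9 was −0.07 at 12 months and 0.03 at 19 months.

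**Figure D2:**
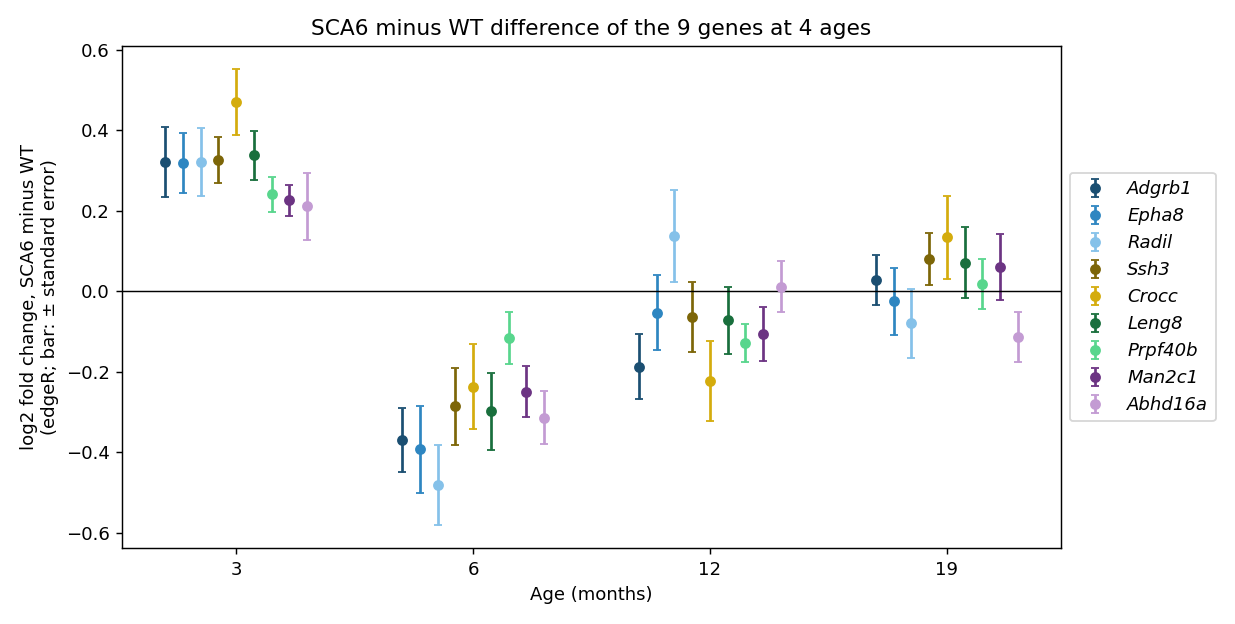
Log2 fold change between SCA6 and WT from edgeR (vertical axis) for the 9 genes at 3, 6, 12 and 19 months (horizontal axis), with 1 point per gene and age and bars of 1 standard error, from 5 libraries per genotype and age. Points lie at 0.21 to 0.47 at 3 months and at −0.48 to −0.12 at 6 months, the values that chose the genes, and within −0.22 to 0.14 at 12 and 19 months.

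Whether the genotype difference changed between 12 and 19 months was tested by the interaction contrast. 0 of 9 genes passed, beside 0% of 13321 genes, and DESeq2 also called 0 genes in all, so nothing is read from the 0 of 9. Crocc alone had an unadjusted p under 0.05, beside 6.66% of genes, with a change of 0.36 (standard error 0.15) and an adjusted p of 0.714 from edgeR. Age itself was tested within each genotype. In WT cerebella 0 of 9 passed from 12 to 19 months, beside 0.883% of 13243 genes. The nearest was Abhd16a, at 114 to 137 CPM at 12 and 135 to 156 CPM at 19 months (log2 fold change 0.21 (standard error 0.063), edgeR adjusted p = 0.0835), the 1 gene of 9 with an unadjusted p under 0.05, beside 24.2% of genes. DESeq2 called 481 genes and 0 of the 9, and its lowest adjusted p among the 9, 0.0295, passed 0.05 but not with the minimum fold. In SCA6 cerebella 0 of 9 passed, beside 0% of 13264 genes, where DESeq2 called 68 genes and 0 of the 9. The lowest DESeq2 adjusted p among the 9 was 0.0167, which passed 0.05 but not with the minimum fold. Epha8 was at 33.1, 29.1, 29.8, 31.1 and 28.1 CPM at 12 months and 36.1, 32.03, 35.4, 38.9 and 36.01 CPM at 19 months, with 4 of 5 libraries at 19 months above all those of 12 months (log2 fold change 0.24 (standard error 0.059), edgeR adjusted p = 0.135). With Ssh3 (0.17), Man2c1 (0.16) and Crocc (0.21) it made 4 of 9 with an unadjusted p under 0.05, beside 12.6% of genes. The difference in age change between the genotypes is the interaction above, which no gene passed.

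The 9 genes varied together from library to library within groups. Each library's log2 CPM was taken as a deviation from the mean of its own group, which removes genotype and age. Over the 36 pairs of genes the median Pearson r was 0.57 across 40 libraries (0.23 to 0.87), beside a median of −0.0058 and a 95th percentile of 0.50 over all pairs of genes tested. In the 20 libraries of 12 and 19 months, which did not choose the genes, the median was 0.63 (−0.19 to 0.90), beside a 95th percentile of 0.57 over all pairs. In the 20 libraries of 3 and 6 months the median was 0.59, beside a 95th percentile of 0.62. Within single ages the medians were 0.61, 0.68, 0.65 and 0.65 in order of age, each below the 95th percentile over all pairs (0.69, 0.77, 0.69 and 0.70). Without replicates 2 and 3 labelled SCA6 at 3 months, the median was 0.60 over 38 libraries and 0.57 over those of 3 and 6 months. The points share library, depth and base composition, and the correlations are a description. Against the mean of the other 8, r ran from 0.54 for Epha8 to 0.78 for Ssh3 and Prpf40b. Within this, Ssh3, Leng8, Crocc, Man2c1 and Prpf40b went together most closely, with r of 0.67 to 0.90 over their 10 pairs at 3 and 6 months and 0.61 to 0.90 at 12 and 19 months. Epha8, Radil and Abhd16a also did, with 0.75 to 0.84 and 0.46 to 0.78 over 3 pairs. Between these sets r was lower, at 0.25 to 0.63 and −0.19 to 0.70, and Adgrb1 had 0.37 to 0.77 and 0.51 to 0.80 with the other 8. The sets were chosen after their values were seen. At 19 months Epha8 and Leng8 varied in opposite directions (r = −0.52 over 10 libraries).

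**Figure D3:**
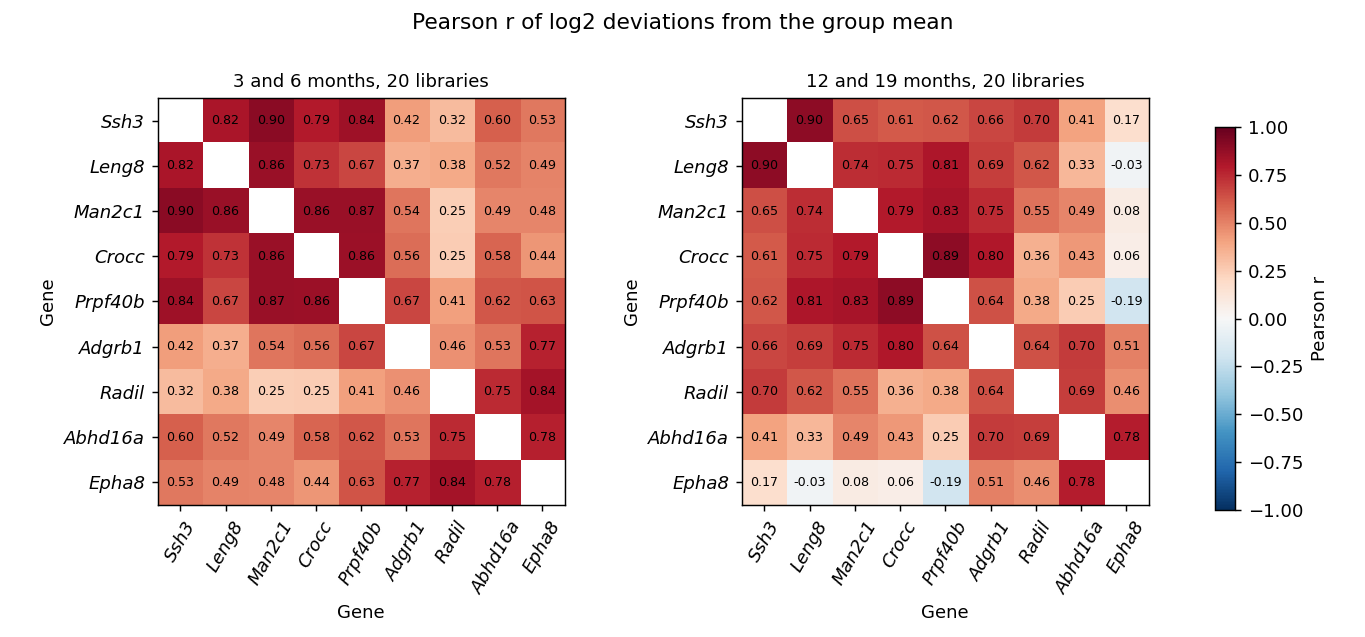
Pearson r between each pair of the 9 genes (both axes) of log2 CPM deviations from the group mean, over 20 libraries of 3 and 6 months (left) and 20 libraries of 12 and 19 months (right), on a colour scale from −1 (blue) to 1 (red). Ssh3, Leng8, Man2c1, Crocc and Prpf40b form a block at 0.61 or more in both panels, while Epha8 is near 0 with them in the older libraries, at −0.19 to 0.17.

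The genes outside the list whose deviations were most like the mean of the 9 across 40 libraries were Aifm3 (r = 0.88), Plk5 (0.88), Cdc42bpg (0.87), Snrnp70 (0.86), Bzrap1 (0.86), Tle2 (0.85), Dgkq (0.84), Adam11 (0.83), Kcnt1 (0.83) and Ssbp4 (0.82). In the 20 older libraries alone their r was 0.82 to 0.90. Snrnp70 encodes a protein of the U1 particle that recognises splice sites, Kcnt1 a sodium-activated potassium channel and Tle2 a transcriptional co-repressor. Of 13372 genes compared, 18 had an r above 0.8 (20 over 38 libraries without replicates 2 and 3 labelled SCA6 at 3 months), and all 18 were above WT at 3 months and below it at 6 months in SCA6 cerebella. Tle2, for example, had log2 differences of 0.39, −0.32, 0.02 and 0.12 in order of age. Of 13210 genes tested for the change between 3 and 6 months, 4112 had the same signs at these ages. The values of these ages chose the 9, so nothing is read from the count of 18. A total of 5 genes had an r below −0.8. The most opposed was Sept7, a septin of the cytoskeleton, with r = −0.87 and differences of −0.11 at 3 months and 0.10 at 6 months.

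The lists of genes that work with the 9 were drawn up with earlier results of these data known, and their counts leave out the 9. Of 15 genes tested that act with Adgrb1 (BAI receptors, their ligands and partners such as Elmo2 and Tiam1), 9 lay above 0 at 3 months and 7 below 0 at 6 months, with medians of 0.0090 and 0.00088. Of 19 other Eph receptors and ephrins, 12 lay above 0 at 3 months and 10 below at 6 months (medians 0.03 and −0.06). RAP1 and its effectors had medians of −0.02 and 0.0034 over 19 genes. The cofilin pathway of Ssh3 had −0.06 and 0.02 over 13. The ciliary rootlet and centrosome linker list of Crocc had 8 of 12 above 0 at 3 months and 8 of 11 below 0 at 6 months (medians 0.05 and −0.05). Early spliceosome factors, the partners of Prpf40b, had 14 of 19 above 0 and 15 of 19 below 0 (0.05 and −0.06), and all 13 genes of mRNA export lay below 0 at 6 months (−0.05), with 8 above 0 at 3 months (0.01). Mannosidases and lysophosphatidylserine enzymes had medians between −0.02 and 0.0081 at both ages. At 12 and at 19 months 0 genes of these 9 lists were called, beside 0.0303% and 0.0226% of all genes tested. With so few calls over all genes, nothing is read from this count. Beside the score of the 9 across 40 libraries, the mRNA export list had r = 0.63, the rootlet list 0.38, the spliceosome list 0.37 and the cofilin list −0.50. The other 5 lists had 0.22 (Eph receptors and ephrins), −0.22 (RAP1), 0.05 (mannosidases), −0.05 (lysophosphatidylserine) and −0.0077 (BAI receptors). Over 38 libraries, without the pair labelled SCA6 at 3 months that went against its label, the 9 values of r ran from −0.51 to 0.63, and the mean difference of the Eph list at 3 months went from 0.03 to −0.00052.

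Base composition moved with the level of the 9 genes. For each library a GC index was taken as the median log2 deviation from the group mean of the GC-richest 20% of genes less that of the GC-poorest 20%, with the 9 left out. The mean deviation of the 9 had r = 0.59 with this index over 40 libraries (Spearman rho 0.59, and r = 0.58 without the 2 libraries furthest from its median). It was 0.77 in the 20 libraries of 3 and 6 months and 0.34 in the 20 of 12 and 19 months, where it fell to 0.20 without the 2 furthest. Without replicates 2 and 3 labelled SCA6 at 3 months, r was 0.56 over 38 libraries and 0.74 in those of 3 and 6 months. Taken on the log2 levels, less its WT mean of the same age, the index was 0.02 to 0.27 in SCA6 and −0.04 to 0.03 in WT libraries at 3 months. At 6 months the ranges were −0.31 to 0.06 in SCA6 and −0.21 to 0.29 in WT, with medians of −0.06 and −0.02. Across genes, the median SCA6 minus WT difference went from −0.06 in the GC-poorest 20% (31.9% to 44.3% GC) to 0.09 in the richest (55.9% to 70.7%) at 3 months. In mean log2 levels the 3 month values were −0.06 and 0.08, and −0.04 and 0.04 without that pair. The order turned at 6 months, from 0.04 to −0.08. It stayed so at 12 months (0.05 to −0.06), and at 19 months the medians were 0.02 and −0.02. All 9 genes lie in the richest 20%. When the trend of each library with GC was removed in the edgeR fit, the median of the 9 was 0.19 at 3 months and −0.23 at 6 months, and the change between these ages was −0.44 in place of −0.64. Radil was then at 0.22 and −0.39, Crocc at 0.31 and −0.12, and Prpf40b at 0.16 and −0.03, and all 9 kept their sign at both ages. The part of base composition in the differences was not tested beyond this fit.

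**Figure D4:**
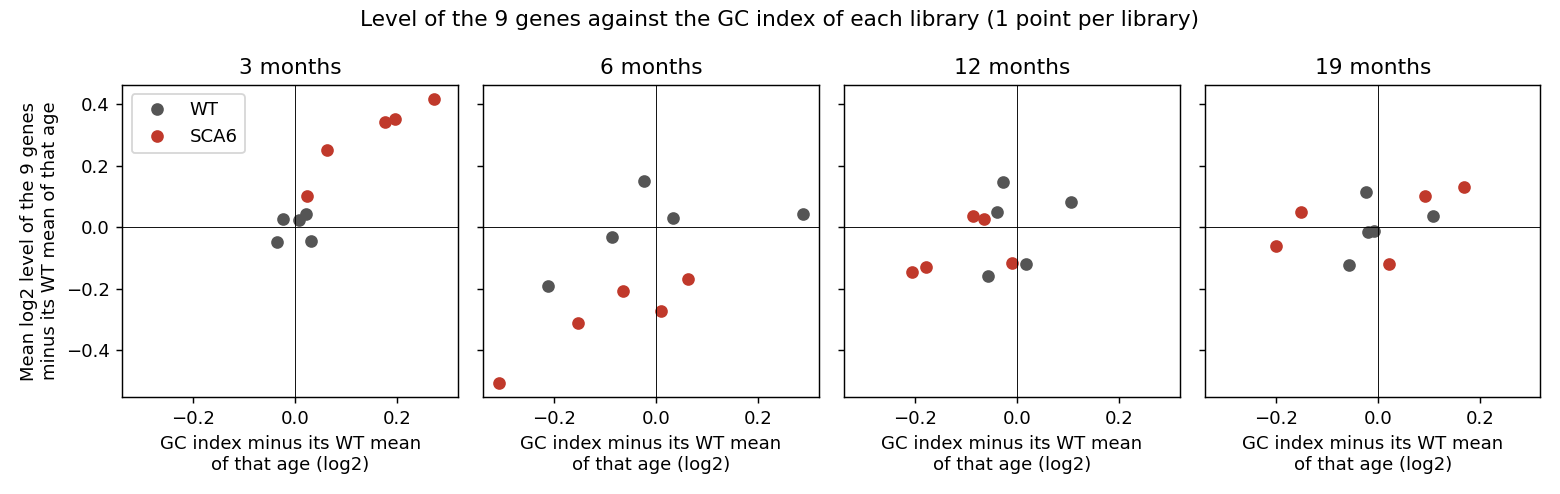
Mean log2 level of the 9 genes (vertical axis) against the GC index (horizontal axis) of each library, both less the mean of the 5 WT libraries of the same age, in 1 panel per age, with 1 point per library in grey (WT) or red (SCA6). At 3 months SCA6 points lie at levels of 0.10 to 0.42, above all WT points, and 4 of 5 also lie to the right of them. At 6 months SCA6 levels are −0.51 to −0.17 and WT levels −0.19 to 0.15. At 12 and 19 months the colours mix.

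Genes with annotated retained introns were compared in the same way. The median difference at 3 months went from −0.01 in 5206 genes with 0 such transcripts to 0.05 in 49 genes with 10 or more, and at 6 months from 0.01 to −0.06. The 9 are left out of these counts, and values at 3 months include replicates 2 and 3 labelled SCA6. Man2c1 has 11 such transcripts. Transcripts known for retained introns, a list of 22 genes, had r = 0.18 with the 9 over 40 libraries. The depth of a library had r = 0.24 with the mean deviation of the 9, and the part of depth in the result was not tested.

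Cell type markers were compared with the 9 genes in the same way. Across 40 libraries the r of their mean level with that of the 9 was 0.19 for 16 Purkinje cell markers (summed level 8342 to 13350.0 CPM), 0.06 for 13 granule cell markers (5826 to 7629 CPM), −0.17 for oligodendrocytes (4972 to 8732 CPM), −0.05 for astrocytes and Bergmann glia (3610.2 to 4623 CPM), −0.25 for microglia (150.0 to 410.1 CPM), 0.19 for endothelial cells (270.0 to 370.1 CPM) and −0.05 for choroid plexus (217 to 7212 CPM). The r was also taken in the 20 libraries of 3 and 6 months and then in the 20 of 12 and 19 months. In that order it was 0.45 and −0.04 for Purkinje cells and −0.23 and 0.62 for endothelial cells. It was 0.0033 and −0.41 for microglia, 0.23 and −0.21 for granule cells and −0.32 and −0.01 for oligodendrocytes. For choroid plexus it was −0.11 and 0.17, and for astrocytes and Bergmann glia −0.05 and −0.06. For choroid plexus markers the mean log2 difference between SCA6 and WT was 0.34 at 3 months and 0.69 at 6 months. The libraries overlapped at both ages, with summed levels of 4441 to 5749 CPM for SCA6 and 1664 to 5226 CPM for WT at 3 months, and 4069 to 5094 and 217 to 5274 CPM at 6 months, where the medians were 4555 and 4524 CPM. Granule cell markers had a mean log2 difference of −0.10 at 6 months (12 of 13 below 0) and −0.02 at 3 months. Without replicates 2 and 3 labelled SCA6 at 3 months, that last value was 0.03, the choroid plexus difference at 3 months was 0.33, and r was 0.20 for Purkinje cell, 0.18 for granule cell, −0.27 for microglia and 0.25 for endothelial cell markers. Snhg11, the 1 nuclear long non-coding RNA of its list in the table, had r = 0.43 with the 9 and log2 fold changes of 0.14 at 3 months and −0.06 at 6 months. Of 29 genes of cytosolic ribosomal proteins, 26 lay below 0 at 3 months and 20 above 0 at 6 months (medians −0.12 and 0.02), and for the change between these ages 26 lay above 0. The list had r = 0.07 with the 9. The part of these transcripts and cell types in the result was not tested.

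The library labels also hold a number shared by several libraries, the ID number, which the sources used here do not explain. At 3 months all 5 SCA6 libraries carry the number 34, as do 2 WT libraries. Within that number the mean log2 level of the 9, less its WT mean, was −0.04 and 0.02 in WT and 0.10 to 0.42 in SCA6. At 6 months, within the number 7 it was −0.19 and 0.03 in 2 WT and −0.51 to −0.21 in 3 SCA6 libraries, and within the number 8 it was 0.04 in 1 WT and −0.27 and −0.17 in 2 SCA6 libraries. At 12 months, within the number 2 it was 0.08 in 1 WT library and −0.13 and 0.04 in SCA6, and within the number 3 it was −0.16 to 0.05 in 3 WT libraries and −0.12 in 1 SCA6 library. At 19 months, within the number 9 it was −0.12 in 1 WT library and −0.06 and 0.05 in SCA6, and within the number 12 it was −0.01 and 0.11 in WT and −0.12 and 0.10 in SCA6. At 3 months, without replicates 2 and 3 labelled SCA6, the SCA6 range was 0.10 to 0.35. When the ID number was taken as a block, the median of the 9 was 0.33 at 3 months and −0.28 at 6 months, and the change between these ages −0.64. With that block and without WT 6 months replicate 1, the library low in choroid plexus transcripts, the medians at 6 months and for the change were −0.22 and −0.56. With Y-linked transcripts as a covariate the medians were 0.34 and −0.25. Among libraries with Y-linked transcripts the level of the 9 was −0.05 and −0.04 in 2 WT and 0.10 to 0.42 in 4 SCA6 libraries at 3 months. These 4 include replicates 2 and 3, and replicates 4 and 5 were at 0.25 and 0.10. At 6 months the level was 0.03 to 0.15 in 3 WT and −0.21 in 1 SCA6 library. Among libraries without Y-linked transcripts, the level was 0.02 to 0.04 in 3 WT and 0.35 in 1 SCA6 library at 3 months. At 6 months it was −0.19 and −0.03 in 2 WT and −0.51 to −0.17 in 4 SCA6 libraries. The values of 3 and 6 months chose the genes, so nothing is read from differences at these ages within an ID number or by Y-linked transcripts.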

How the data were processed

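Poly(A) RNA libraries of single mouse cerebella were sequenced as paired reads. Per the study's methods, the authors checked reads with FastQC, trimmed them with Trimmomatic, aligned them to mm10 with STAR, counted reads per gene with HTSeq and tested them with DESeq2. The sources used here do not give versions, annotation release or strand setting. The study's methods also state that outliers found by principal components and clustering were left out, without naming them. The deposited values are raw counts of 21967 genes in 40 libraries, and all 40 were kept here. Here genes with a CPM of 1 or more in every library of at least 1 compared group were fitted with edgeR 4.0.16 (R 4.3.3; TMM scaling, quasi-likelihood test, Benjamini-Hochberg adjustment), and a call needed an adjusted p of 0.05 or less and a log2 fold change of at least 0.3 in size. The fit was also run on counts simulated gene by gene from its own model with planted changes. These lack the shared variation between genes described above, so they cannot show how the fit handles it. DESeq2 1.42.0 was an alternative. Groups came from the labels. Nothing says whether libraries within a group differ by litter or batch, and the meaning of the ID number is not given. The 9 genes and all gene lists were chosen with earlier results of these data known. The genes named beside the 9 are those most like their mean in deviation from group means, list members, and the nearest genes outside the choice. The removal of the GC trend, the ID number as a block without WT 6 months replicate 1, and correlations without replicates 2 and 3 labelled SCA6 at 3 months were chosen after seeing the data. Gene positions are from GENCODE M21 (GRCm38), where 19575 of 21967 symbols matched once.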

Additional observations from a re-analysis of the deposited data

Results flagged for a closer look

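Of 72 groups of 5 libraries examined (9 genes in 8 groups), 3 held a library far from the other 4 by Dixon's criterion, which chance meets in about 1 of 20 groups. Radil was at 27.7 CPM in SCA6 3 months replicate 1, with the other libraries at 19.8 to 21.98 CPM. Crocc was at 12.4 CPM in WT 3 months replicate 1, with the others at 11.1 to 11.4 CPM. Leng8 was at 155 CPM in SCA6 3 months replicate 5, with the others at 183 to 194 CPM.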

How the results depend on the processing

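The median of the 9 genes kept its direction at 3 months, at 6 months and for the change between them under every alternative run. These values chose the genes, so nothing is read from the kept direction. No alternative read replicates 2 and 3 labelled SCA6 at 3 months as WT. With the GC trend removed the median of the 9 moved to 0.19 at 3 months and −0.44 for the change. Leaving out 1 library gave 0.27 to 0.37 at 3 months, −0.33 to −0.23 at 6 months and −0.70 to −0.59 for the change. 0 of the 9 were called in any tested comparison and setting. In the main edgeR fits at most 0.883% of genes were called, so nothing is read from this count. Same-numbered libraries did not deviate together (r over 0.1 in 6 of 20 pairs, −0.51 to 0.67), so the numbers were not taken as pairs, and with a replicate block the medians were 0.31, −0.30 and −0.64. Over all genes, calls at 12 months (4) became 10 with DESeq2, 1 with the replicate block, 2 with the ID block and 1 with the Y-linked covariate. Those at 19 months (3) became 9 with DESeq2, 5 without the filter and 6 with all 8 groups fitted together, and those over both ages (9) became 17 with no minimum fold. WT calls from 12 to 19 months (117) became 184 with no minimum fold, 481 with DESeq2, 66 with library totals, 34 without the filter, 28 with the Y-linked covariate and 477 with 8 groups, and ran from 0 to 570 when 1 library was left out, the most without WT 12 months replicate 5. SCA6 calls (0) became 68 with DESeq2, 1 with the Y-linked covariate and 7 with the GC trend removed, and 0 to 5 without 1 library. The ID block could not be fitted for these age comparisons. Values near 0 changed sign. Abhd16a at 12 months was −0.0226 with the ID block and −0.0533 with the Y-linked covariate (−0.0210 to 0.0536 without 1 library). Epha8 at 12 months was 0.0162 with the GC trend removed (−0.10 to 0.0226), and at 19 months 0.0447, 0.0189 and 0.0034 with the ID block, the Y-linked covariate and the GC trend removed (−0.0774 to 0.0267). At 19 months Adgrb1 ran from −0.0091 to 0.0642 and Prpf40b from −0.0200 to 0.0633 without 1 library. The cause of these moves was not tested. With 5 libraries a group, p-values measure the spread between these libraries only.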
